A study of Homo sapiens with 6 samples.

Results

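Fragments from the D-arm of tRNA-Lys, the tRNA that carries lysine, were followed in 6 small RNA libraries of A375, a human melanoma line. The 149 members, out of 3443 fragments in the table, were the internal tRFs (pieces that hold neither end of the tRNA) that share at least 14 consecutive bases with tRF-21-JMRPFQ5DE, whose bases match a tRNA-Lys-CTT. The rule also asked for 5' fragments of 19 nt or more that begin like the main Lys-CTT and Lys-TTT tRNAs. That branch of the rule gave 0 members, so such 5' fragments are not analysed here and the results below describe internal fragments alone. The 2 groups were wild-type A375 cells, which were grown alongside and not targeted, and A375 cells with a CRISPR/Cas9 knockout of DUS1L, with 3 libraries each. The knockout went through clonal selection, and the number of clones behind the 3 libraries is not given in the sources used here, so p-values measure the spread between libraries and not between clones.

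DUS1L belongs to the dihydrouridine synthases, which reduce a uridine of the D-loop to dihydrouridine, a flexible base that gives the loop its name. DUS1L is known for positions 16 and 17 of the D-loop. Fragments of tRNA are made by nucleases that cut in the loops, and the D-loop and the anticodon loop are the known places of cutting in human cells. In the table, each internal fragment shows 1 start and 1 end, so the family records where the RNAs that were read began and stopped.

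Positions were counted from the first base of tRF-36-P6QP4PW3FJI0E7E, a 5' tRF of a Lys-CTT isodecoder (a tRNA with the same anticodon and a slightly different body) that holds the whole 5' part up to the anticodon at positions 34 to 36. The same stretch is shown for the gene TRK-CTT3-1 and, up to position 27, for Lys-TTT as joined from 2 overlapping fragments of the table. The capital marks position 16, the T that is a uridine in the RNA.
Lys-CTT isodecoder: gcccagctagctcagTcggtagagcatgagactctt
TRK-CTT3-1: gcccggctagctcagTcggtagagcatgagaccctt
Lys-TTT: gcccggatagctcagTcggtagagcat
The isodecoder differs from TRK-CTT3-1 by G5A and C33T, with the base of TRK-CTT3-1 first. Lys-TTT differs from TRK-CTT3-1 within these 27 bases by A7C, with the Lys-TTT base first. Position 17 is a C in all 3 sequences, so position 16 is the only T of the DUS1L pair of sites. TRK-CTT3-1 lies on chromosome 16 from 3157405 to 3157477 on the minus strand (GRCh38, 73 bases) and is 1 of 14 Lys-CTT tRNA genes in RefSeq's annotation, so a fragment can come from several genes.

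The members that changed are shown here because their ends carry the pattern described below. With them are 3 abundant members that start at position 16 and did not pass the test. Other members of similar abundance that did not pass are left out. The members shown that end at positions 28 to 30 are:
tRF-18-4PW3FJD0: ctcagTcggtagagcatg
tRF-17-83ML5FP: tcagTcggtagagcatg
tRF-16-JMRPFQ0: cagTcggtagagcatg
tRF-18-83ML5F0L: tcagTcggtagagcatga
tRF-17-JMRPFQL: cagTcggtagagcatga
tRF-16-1SS2P4B: agTcggtagagcatga
tRF-18-JMRPFQDS: cagTcggtagagcatgag
Those that end at positions 31 and 32 are:
tRF-16-W3FJI0B: Tcggtagagcatgaga
tRF-19-1SS2P4ER: agTcggtagagcatgagac
tRF-17-W3FJI01: Tcggtagagcatgagac
Those that end at position 33, the last base before the anticodon, are:
tRF-28-QP4PW3FJI0W: gctagctcagTcggtagagcatgagact
tRF-21-JMRPFQ5DE: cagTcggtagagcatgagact
tRF-20-1SS2P4FI: agTcggtagagcatgagact
tRF-19-S8V0JUHW: gTcggtagagcatgagact
tRF-18-W3FJI0W: Tcggtagagcatgagact
Those that end at position 34, the first base of the anticodon, are:
tRF-21-1SS2P4FID: agTcggtagagcatgagactc
tRF-19-W3FJI0E5: Tcggtagagcatgagactc
On TRK-CTT3-1, tRF-16-JMRPFQ0 (positions 13 to 28) covers 3157450 to 3157465 of chromosome 16, and the fragments shown here that end at 33 or 34 match the isodecoder and not this gene.

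Internal D-arm fragments of tRNA-Lys took a larger share of the counts in the knockout. They made up 5.24%, 6.66% and 6.19% of all counts in replicates 1 to 3 of the wild type and 12%, 10.6% and 9.50% in those of the knockout. Every knockout library lay above every wild-type library, with means of 6.03% ± 0.721 and 10.7% ± 1.25 (SD, n = 3 each; two-sided exact permutation p = 0.1, the smallest that 3 against 3 libraries can give). Of the counts of internal tRFs alone, the members held 20.8% ± 2.66 in wild-type and 26.5% ± 2.71 in knockout libraries, again without overlap. All other internal tRFs together took 23.2% ± 4.27 and 29.6% ± 0.920 of all counts, also without overlap.

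The libraries held 15742 to 32754 counts, of which 1048 to 2496 came from the members, and wild-type replicate 3 stood furthest from its group (chi-square per degree of freedom of 8.22 and 5.83 against the other wild-type libraries, and 2.56 to 2.93 among all other pairs of a group). At that depth 29 members could be tested, and they held 88.3% of the members' counts. The remaining 120 had 1 to 68 counts over all libraries, with a median of 5. Most of the family sat in few fragments: the 10 largest members held 54.7% of its counts.

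Of the 29 members tested, 11 were higher and 3 lower in the knockout (edgeR's quasi-likelihood test, adjusted over all 235 fragments tested). The background was 25.5% of all tested fragments higher and 28.1% lower, against 37.9% and 10.3% of the members. Of the 66 lower fragments behind that background, 35 were 3' tRFs, a type with 41 tested and 0 higher. Among the other 92 internal tRFs tested, 33.7% were higher and 16.3% lower. Among the 60 tested 5' fragments of 19 nt or more, of other tRNAs, 25% were higher and 18.3% lower. The median log2 fold change was 0.40 over the members, 0.28 over the other internal tRFs and -0.01 over all fragments tested. Without knockout replicate 2 the higher count was 7. The lower count was 5 on leaving out replicate 3 of the wild type, and 1 on leaving out replicate 1 or 2 of the knockout or with DESeq2's Wald test.

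The rises were sharpest in fragments that stop inside the anticodon stem, at positions 28 and 29. All 6 tested members with these ends rose, from every start between 11 and 14 that was tested. These 2 ends held 15.1%, 16.4% and 14.9% of the members' counts in replicates 1 to 3 of the wild type and 44.9%, 37.2% and 41.2% in those of the knockout. No other pair of neighbouring ends gained as much, and the groups lay far apart compared with their SDs of 0.808 and 3.88 points.

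The largest member, tRF-16-JMRPFQ0, spans positions 13 to 28. It stood at 3506, 6310 and 3907 CPM (counts scaled to library size by TMM, the trimmed mean of M-values) in wild-type replicates 1 to 3 and at 30060, 19389 and 18664 CPM in knockout replicates 1 to 3. Its lowest knockout library was thus well above its highest wild-type library, and its log2 fold change was 2.32 (adjusted p = 3.04e-04 in edgeR, SE 0.328). With the same end and 2 more bases at the 5' side, tRF-18-4PW3FJD0 stood at 2991, 2391 and 2287 CPM in wild-type and 11119, 7389 and 10196 CPM in knockout libraries, a log2 fold change of 1.90 (adjusted p = 3.04e-04 in edgeR, SE 0.269). The form between them, tRF-17-83ML5FP, which starts at position 12, was at 722, 863 and 1048 CPM in wild-type and 4428, 2956 and 3283 CPM in knockout libraries, a log2 fold change of 2.02 (SE 0.289). The 3 forms with this end thus rose by similar amounts and without overlap.

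One base further, at position 29, fragments were rarer and the differences were at least as large in 2 of 3 members. Counts of tRF-17-JMRPFQL (positions 13 to 29) were 15, 13 and 9 in wild-type and 119, 82 and 80 in knockout libraries, a log2 fold change of 3.00 (adjusted p = 1.26e-04 in edgeR, SE 0.345). Counts of tRF-18-83ML5F0L (12 to 29) were 5, 0 and 3 in wild-type and 32, 13 and 18 in knockout libraries, a log2 fold change of 3.06 (adjusted p = 0.00184 in edgeR, SE 0.593). Both are thin in wild-type cells, so their fold changes rest on few reads. For tRF-16-1SS2P4B (14 to 29) the counts were 10, 7 and 1 in wild-type and 16, 20 and 17 in knockout libraries, with no overlap after scaling and a log2 fold change of 1.66 (adjusted p = 0.0233 in edgeR, SE 0.536). Leaving out replicate 1 of the knockout (adjusted p = 0.0529 in edgeR) or its replicate 2 (0.0966) lost this call, as did testing with no filter on low counts (0.0597).

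Of the 2 tested members that end at position 30, 1 rose. The form from 13 to 30, tRF-18-JMRPFQDS, stood at 928, 731 and 572 CPM in wild-type and 3198, 1892 and 2031 CPM in knockout libraries and rose by a log2 fold change of 1.65 (adjusted p = 0.00205 in edgeR, SE 0.326). The form from 14 to 30, tRF-17-1SS2P4H, was at 1238, 1594 and 858 CPM in wild-type and 1132, 591 and 778 CPM in knockout libraries, which overlap (log2 fold change -0.53, adjusted p = 0.238 in edgeR, SE 0.362). The tested members with starts 11 to 13 and ends 28 to 30 numbered 6, and all 6 kept their call in each alternative that tested them. They were the only called members that did so.

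Fragments that stop at positions 31 and 32, at the far end of the anticodon stem and the first base of its loop, did not share the rise. Of 8 tested, 0 were higher and 1 was lower, with log2 fold changes from -0.83 to 0.60. As a share of the members' counts these 2 ends went from 33.1% ± 5.96 in wild-type to 17% ± 1.19 in knockout libraries (SD, n = 3 each), without overlap. As a share of all counts, end 31 was at 0.859% ± 0.179 and 0.962% ± 0.175, which overlap. End 32 was at 1.12% ± 0.0843 and 0.862% ± 0.132, which do not, but by a very narrow gap. That gap lay between 188 of 18427 counts in wild-type replicate 3 and 211 of 20807 in knockout replicate 1. With the TMM factors of these 2 libraries, 1.14 and 0.977, their order reverses and the groups overlap. The lower share within the family therefore went with a level of end 31 that overlapped between groups.

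The member that fell was tRF-19-1SS2P4ER (14 to 32). It stood at 3025, 3122 and 3240 CPM in wild-type and 2165, 1773 and 1339 CPM in knockout libraries, a log2 fold change of -0.83 (adjusted p = 0.0216 in edgeR, SE 0.264). The 3 wild-type libraries were close together and all above the knockout libraries. The call was lost on leaving out replicate 1 of the wild type (adjusted p = 0.0545 in edgeR) or replicate 2 (0.0966) or 3 (0.131) of the knockout, with DESeq2's Wald test (0.158) and with no filter on low counts (0.364). Beginning at position 16 itself, tRF-17-W3FJI01 (16 to 32) was at 5157, 4052 and 2763 CPM in wild-type and 2607, 1951 and 3154 CPM in knockout libraries, a log2 fold change of -0.63 (adjusted p = 0.0993 in edgeR, SE 0.303). Its groups overlapped through wild-type replicate 3 and knockout replicate 3, and it passed the threshold once wild-type replicate 3 was left out (adjusted p = 0.0273 in edgeR). The other abundant form from position 16, tRF-16-W3FJI0B (16 to 31), was at 3610, 3454 and 1477 CPM in wild-type and 3591, 1892 and 2074 CPM in knockout libraries (log2 fold change -0.17, adjusted p = 0.710 in edgeR, SE 0.374).

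Position 33, the base before the anticodon, was the most common end of the family in wild-type cells. It held 30.1% ± 7.02 of the members' counts in the wild type and 28.8% ± 4.73 in the knockout, which overlap. Wild-type replicates 1 to 3 had 401, 311 and 426 counts with this end, of totals of 32754, 15742 and 18427. Those of the knockout had 625, 578 and 599, of totals of 20807, 16047 and 23063. As a share of all counts, every knockout library thus lay above every wild-type library. The 3 forms that start at positions 13, 14 and 15 rose by nearly the same amount, with log2 fold changes from 1.00 to 1.12. Of the 7 tested forms with other starts, 1 rose and 6 did not pass the test, and differences between starts were not tested.

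The fragment that defines the family, tRF-21-JMRPFQ5DE (13 to 33), stood at 3953, 4516 and 6003 CPM in wild-type and 12447, 12827 and 6135 CPM in knockout libraries. Knockout replicate 3 lay close to wild-type replicate 3, and the other knockout libraries were well above it. Its log2 fold change was 1.12 (adjusted p = 0.0138 in edgeR, SE 0.324), and the call was lost on leaving out replicate 2 of the wild type (0.0593) or replicate 1 (0.0521) or 2 (0.0715) of the knockout and with no filter on low counts (0.0893). For tRF-20-1SS2P4FI (14 to 33) the values were 1203, 2192 and 1668 CPM in wild-type and 4625, 3133 and 2247 CPM in knockout libraries, a log2 fold change of 1.00 (adjusted p = 0.0270 in edgeR, SE 0.336). For tRF-19-S8V0JUHW (15 to 33) they were 1856, 1860 and 1239 CPM and 4329, 3724 and 1987 CPM, a log2 fold change of 1.01 (adjusted p = 0.0250 in edgeR, SE 0.332). In both, knockout replicate 3 was the lowest of its group and still above every wild-type library. tRF-20-1SS2P4FI lost its call on leaving out replicate 1 of the wild type (adjusted p = 0.0826 in edgeR) or replicate 1 (0.0803) or 2 (0.0569) of the knockout, with 50 or more counts required in 3 libraries (0.0720) and with no filter on low counts (0.188). tRF-19-S8V0JUHW lost its call on leaving out replicate 2 of the wild type (adjusted p = 0.0546 in edgeR) or replicate 1 (0.0628) or 2 (0.0786) of the knockout, and with no filter on low counts (0.225).

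From position 16 to the same end, tRF-18-W3FJI0W was at 1719, 3122 and 2382 CPM in wild-type and 2853, 2365 and 1858 CPM in knockout libraries (log2 fold change -0.01, adjusted p = 0.977 in edgeR, SE 0.298). Longer forms with this end, which reach back into the acceptor stem, varied more between knockout libraries. For tRF-28-QP4PW3FJI0W (6 to 33) the values were 653, 1926 and 1239 CPM in wild-type and 1378, 3251 and 3975 CPM in knockout libraries. The groups overlapped through knockout replicate 1, and the log2 fold change was 1.23 (adjusted p = 0.0375 in edgeR, SE 0.448). It lost its call on leaving out replicate 1 of the wild type (adjusted p = 0.0944 in edgeR) or replicate 2 (0.0991) or 3 (0.117) of the knockout and with library totals (0.0605) or upper quartile scaling (0.0643). The forms that start at 7, 8, 10, 12 and 17 had log2 fold changes from -0.19 to 0.67 and did not pass the test.

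Ends at position 34, after the first base of the anticodon, were lower in the knockout, in contrast to ends 1 base earlier. They held 9.44%, 11.1% and 8.42% of the members' counts in replicates 1 to 3 of the wild type and 1.92%, 2.89% and 3.61% in those of the knockout. As a share of all counts they were at 0.584% ± 0.133 and 0.293% ± 0.0570, without overlap. Both members with this end that could be tested fell. tRF-21-1SS2P4FID (14 to 34) was at 1100, 1860 and 1001 CPM in wild-type and 295, 414 and 562 CPM in knockout libraries, a log2 fold change of -1.58 (adjusted p = 0.00775 in edgeR, SE 0.397). tRF-19-W3FJI0E5 (16 to 34) was at 1341, 1926 and 1191 CPM in wild-type and 541, 591 and 864 CPM in knockout libraries, a log2 fold change of -1.12 (adjusted p = 0.0182 in edgeR, SE 0.343). Neither overlapped between groups. The first lost its call on leaving out replicate 1 of the knockout (adjusted p = 0.0507 in edgeR). The second lost it on leaving out replicate 2 of the wild type (adjusted p = 0.0602 in edgeR) or replicate 1 (0.0946) or 2 (0.0707) of the knockout, with DESeq2's Wald test (0.121) and with no filter on low counts (0.180).

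The other 12 members with this end had too few counts to test. Among them, picked out after their values were seen, tRF-28-4J83ML5FX2D5 (7 to 34) had 18, 18 and 7 counts in the wild type and 2, 4 and 9 in the knockout. The form from 13 to 34, tRF-22-JMRPFQ5D5, had 14, 6 and 10 counts in the wild type and 5, 6 and 4 in the knockout. All 11 members with this end that start at position 16 or before had 136, 103 and 86 counts in the wild type and 31, 31 and 57 in the knockout. The 3 that start later had 26, 13 and 10 counts in the wild type and 17, 18 and 22 in the knockout. Whether forms with and without position 16 differ here was not tested. Ends at 35 and 36, inside the anticodon, were rare, with 29, 14 and 37 counts in the wild type and 69, 57 and 80 in the knockout, and none of these members could be tested.

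Starts shifted as well. Position 13, in the D-stem, was the most common start, with 21%, 22.6% and 23.9% of the members' counts in replicates 1 to 3 of the wild type and 45.3%, 43.1% and 35.1% in those of the knockout. Starts at positions 11 to 13 together went from 31.8% ± 1.23 to 57.6% ± 4.03 (SD, n = 3 each), without overlap. Starts at positions 14 to 16, next to or at the DUS1L site, went from 46.2% ± 4.11 to 25.3% ± 1.56, also without overlap. Measured against all counts, start 13 went from 1.36% ± 0.225 to 4.44% ± 1.05 without overlap, while start 14 (1.04% ± 0.217 and 1.04% ± 0.197), start 15 (0.676% ± 0.0929 and 0.840% ± 0.219) and start 16 (1.06% ± 0.154 and 0.842% ± 0.108) overlapped between groups. Of the members tested, 7 of 10 with starts 11 to 13 rose and 0 fell, while 3 of 13 with starts 14 to 16 rose and 3 fell.

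Start and end are not independent here. The table's shortest members have 16 nt, so a fragment that ends at 28 must start at 13 or before, and a shorter piece would not be listed. Ratios between fragments with the same start avoid this and need no scaling between libraries. For start 13, the ratio of fragments ending at 28 to those ending at 33 was 0.887, 1.40 and 0.651 in wild-type and 2.42, 1.51 and 3.04 in knockout libraries. For start 12 it was 1.17, 0.812 and 1.29 in wild-type and 6.43, 2.63 and 4 in knockout libraries. The shift towards end 28 was thus seen within both starts, with knockout replicate 2 lowest in each. At start 13 the gap between the groups was narrow, between the highest wild-type value of 1.40 and the lowest knockout value of 1.51. Longer forms seldom ended at 28 in either group. Starts 6, 7, 8, 9 and 10 had 13, 3, 3, 9 and 2 counts there over all libraries. At end 33 the same starts had 249, 294, 217, 24 and 114. Start 11 had 758 counts at end 28 and 5 at end 33. The shift within a start is therefore described for starts 12 and 13 alone.

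The ratio of end 34 to end 33 could be formed in every library for 11 starts. It was lower in the knockout without overlap for 8 of them (starts 6, 7, 8, 10, 13, 14, 15 and 16) and overlapped for 3 (starts 12, 17 and 18). Many of these ratios rest on few counts, and 2 starts had at least 5 counts of both ends in every library. For start 14 it was 0.914, 0.848 and 0.600 in wild-type and 0.0638, 0.132 and 0.25 in knockout libraries. For start 16 it was 0.780, 0.617 and 0.5 in wild-type and 0.190, 0.25 and 0.465 in knockout libraries. For start 17, with 48 counts at end 34, the values were 0.909, 0.625 and 0.154 in wild-type and 0.7, 1.08 and 0.526 in knockout libraries. With the same minimum of 5 counts, the ratio of end 33 to end 32 was higher in the knockout for start 14 (0.398, 0.702 and 0.515 against 2.14, 1.77 and 1.68) and for start 15 (0.628, 0.683 and 0.722 against 1.54, 1.80 and 1.24). For start 13 it overlapped, at 2.80, 3.58 and 8.40 against 7.67, 12.8 and 9.47. For start 16 it also overlapped, at 0.333, 0.770 and 0.862 against 1.09, 1.21 and 0.589. Start 17 met the same minimum, and its ratio overlapped between groups too. It had 11, 8 and 13 counts at end 33 and 7, 6 and 5 at end 32 in wild-type libraries. In knockout libraries it had 10, 13 and 19 counts at end 33 and 12, 8 and 13 at end 32. These ratios were chosen after the values were seen and were not tested. The members as a whole were slightly shorter in the knockout, with a mean length of 20.3 nt ± 0.326 in wild-type and 19.5 nt ± 0.493 in knockout libraries.

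Members that lie 3' of the DUS1L site, without the T at position 16, served as a contrast within the family. There were 31 of them with 675 counts, and 2 could be tested. The long form tRF-37-S2P4FINOW6RM7KQ, which starts in the D-loop at position 19 and runs through the anticodon arm to position 55, stood at 2544, 1793 and 1763 CPM in wild-type and 2558, 2187 and 2031 CPM in knockout libraries. Its groups overlapped and its log2 fold change was 0.14 (adjusted p = 0.686 in edgeR, SE 0.264). The short form tRF-17-ML5FX23 (17 to 33) was at 378, 531 and 619 CPM in wild-type and 492, 768 and 821 CPM in knockout libraries (log2 fold change 0.47, adjusted p = 0.323 in edgeR, SE 0.386). Of the 27 tested members that hold the T, 11 rose, 3 fell and 13 did not pass. Whether the groups with and without the T differ was not tested.

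By isoacceptor, most of the family was not assigned, because Lys-TTT was compared only up to position 27. Of the 149 members, 139 with 10250 of 10285 counts match the Lys-CTT bases shown above and are not contained whole in the Lys-TTT stretch. Among them, 27 members run past position 36 and were compared up to there. The Lys-TTT sequence was compared up to position 27, and over those bases 122 members with 92.9% of the counts are identical to it. Of these, 113 members with 9525 counts go on past position 27, where Lys-TTT was not compared. The compared bases alone do not tell a Lys-TTT origin from a Lys-CTT one for them. Members of the family that reach position 34 hold a C there, the first base of a CTT anticodon, where a TTT anticodon has a T. They are the 14 members that end at 34 (550 counts), the 29 that end at 35 or 36 (286) and the 27 that end past 36 (394). The 27 members that differ from Lys-TTT within the compared bases start at positions 2 to 7 and hold 727 counts. A total of 8 members with 31 counts lie wholly within the compared stretch and fit both, the largest being tRF-16-4PW3FJB (11 to 26) with 2, 1 and 1 counts in the wild type and 3, 3 and 2 in the knockout. The next, tRF-17-4PW3FJI (11 to 27), had 2, 0 and 0 counts in the wild type and 2, 4 and 0 in the knockout. After them came tRF-16-83ML5FE, with 5 counts in all, and tRF-19-F91SS2II, with 2, and the other 4 had 1 count each. The only member that fits Lys-TTT alone, tRF-23-6LQ6S8V0DI, had 1, 1 and 0 counts in wild-type and 0 in each knockout library. The remaining one, tRF-24-9EF91SS2II, differs from both at its 5' side and had 1, 0 and 1 counts in wild-type and 0 in each knockout library. No comparison of isoacceptors could be made from such counts.

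At the limits of the rule, the 12 internal fragments that share exactly 14 bases with tRF-21-JMRPFQ5DE had 41 counts in all, and the 11 that share 13 bases, just outside, had 26. On the 5' side, 2 Lys-TTT tRFs lie below the length limit. tRF-16-PS5P4PE, which ends at position 16 itself, had 5, 5 and 11 counts in the wild type and 40, 34 and 56 in the knockout. tRF-17-PS5P4P5 had 7, 4 and 10 in wild-type and 16, 3 and 9 in knockout libraries. With 5' rows of 16 nt or more let in, 30 members were tested and 12 were higher in the knockout. The member added to both counts was tRF-16-PS5P4PE.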

How the data were processed

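Small RNA libraries of wild-type and DUS1L knockout A375 cells, 3 each, were compared by their read counts per fragment. The authors deposited raw counts, 1 column per library, not normalized. Per the labels' protocols, NEBNext libraries were size-selected and read from one end. Per the series' design text, reads were mapped to human tRNA with MINTmap, and the submitters' processing notes list cutadapt, FastQC and DESeq2 and build GRCh38. No tool version or read filter is stated there.

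All 3443 identifiers (MINTbase codes) were decoded to sequence. The members and lists were chosen with earlier results of these data known. Fragments passing filterByExpr (minimum count 10) were scaled by TMM and tested with edgeR 4.0.16 (R 4.3.3) by the quasi-likelihood test, two-sided, Benjamini-Hochberg adjusted over 235 fragments at 0.05. CPM are TMM-scaled. In simulated counts (258 fragments tested) the test recovered 40% of 2-fold and 100% of 4-fold changes and called 2 of 218 unchanged fragments. Changes were planted only in the more abundant fragments, and all counts were drawn with 1 common dispersion. The recovery rates therefore do not cover thin members such as tRF-18-83ML5F0L and tRF-16-1SS2P4B, with 71 counts each over all libraries. Named by plan were tRF-21-JMRPFQ5DE, the 5 largest members of each isoacceptor class, every called member and the fragments at the limits of the rule. Named outside that plan were tRF-18-W3FJI0W, tRF-17-1SS2P4H, tRF-37-S2P4FINOW6RM7KQ, tRF-17-ML5FX23, tRF-28-4J83ML5FX2D5 and tRF-22-JMRPFQ5D5. Comparisons planned for 5' fragments (their shares and the ratio of Lys-CTT to Lys-TTT) were not made, with 0 members. Alternatives were other scalings, filters, DESeq2 1.42.0, a replicate block, each library left out and other limits of the rule. The genomic match used the GENCODE release 29 transcripts and RefSeq's gene table of GRCh38.p14.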

Additional observations from a re-analysis of the deposited data

How the results depend on the processing

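The count of higher members was 10 to 11 under the other scalings and 11 with DESeq2's Wald test, against 11. It was 7 with no filter on low counts, 6 with 50 or more counts required in 3 libraries (10 members tested), and 7 to 12 with 1 library left out. The count of lower members, 3, was 1 with no filter, 0 with 50 or more counts required (edgeR), 1 with DESeq2's Wald test and 1 to 5 with 1 library left out. With a replicate block the counts were 11 and 3. Same-numbered libraries of the groups correlated at 0.37, -0.07 and 0.11 in their deviations. Differently numbered libraries correlated at -0.27 to 0.19. With so few libraries this does not settle whether the numbers pair the libraries. The median log2 fold change of all fragments was 0.10 with RLE scaling instead of -0.01. The share of all counts stayed higher in the knockout, by 4 to 5.24 points with 1 library left out, against 4.65. The log2 fold change of tRF-16-W3FJI0B, not called, ranged from -0.43 to 0.0929 with 1 library left out, turning to 0.0929 without wild-type replicate 1, 0.08 without knockout replicate 2 and 9.24e-04 without knockout replicate 3. The cause of these changes was not tested. Differences in the shares of ends 28 and 29, end 34 and starts 11 to 13, alternatives added after seeing the data, kept their direction with each library left out and with 16 shared bases. Library totals of 15742 to 32754 counts left 120 of 149 members untested. Shares of 5' fragments and the isoacceptor ratio gave no value, with 0 such members.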
